A study of Homo sapiens with 6 samples.

Results

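The ribosome biogenesis factors described here are 40 genes, taken as the rows of the deposited tables whose symbol is on a fixed list of nucleolar rRNA processing and ribosome assembly genes. All 40 had a row among 19942 gene symbols, and all 40 reached an FPKM of 1 in each library. FPKM is fragments scaled to transcript length and library size, so levels of different genes can be set side by side per length.

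RNA was sequenced from the established human colorectal carcinoma line HCT116 in 6 groups of 1 library each. Cells resistant to 5-fluorouracil were given EHMT2 siRNA, given control siRNA or left untransfected, and parental (wild-type) cells were handled in the same 3 ways. The dose and time of the drug and of the siRNA, and whether the resistant cells are 1 clone, were not found in the labels. The series description speaks of independent replicates, and only 1 library of each group was analysed here, so ratios between libraries carry no test of their own.

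Ribosome production starts in the nucleolus, where RNA polymerase I copies the rRNA genes into a long precursor. Small nucleolar ribonucleoproteins (snoRNPs) guide methylation and pseudouridylation of that precursor, while large sets of helicases, nucleases and scaffold proteins fold and cut it into the small and the large subunit. The transcription factor MYC is known to drive many of these genes through a DNA motif called the E-box. 5-Fluorouracil is built into RNA as well as blocking thymidylate synthase, and its presence in RNA is known to disturb rRNA processing and pseudouridine formation. EHMT2 encodes a histone methyltransferase.

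EHMT2 itself had an FPKM of 3.80 with EHMT2 siRNA, 19.5 with control siRNA and 27.3 without transfection in resistant cells. In parental cells it had 8.58 with EHMT2 siRNA, 31.7 with control siRNA and 19.8 without transfection. The libraries labelled as knockdowns held the least EHMT2 RNA in both lines. Across the 6 libraries the FPKM summed to between 360695 and 446143, and between 11240 and 11722 genes reached an FPKM of 1. The values are not counts, so sequencing depth is unknown. Of 11 epithelial markers, EPCAM, CDH1, KRT8, KRT18, KRT19 and CDX2 were expressed, KRT20 stayed below an FPKM of 1, and VIL1, CDX1, LGALS4 and CEACAM5 were listed at 0. Of 12 markers of fibroblasts, leukocytes and endothelium, 2 reached an FPKM of 1, COL1A1 at 3.35 to 9.79 and CD68 at 0.372 to 4.99, while PTPRC and PECAM1 were listed at 0. A label of the untransfected resistant library spells the resistant cells differently from that of the transfected ones, though the titles name them alike.

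The members spanned a wide range of levels. The most abundant was NPM1, a nucleolar chaperone, at an FPKM of 761 to 1146, followed by NCL, an RNA-binding protein of the nucleolus, at 275 to 412. The least abundant was UTP20, a scaffold of the small-subunit precursor, at 2.30 to 4.52. Of the 40 members, 37 had an FPKM of 5 or more in each library. The highest library exceeded the lowest by a median of 1.61 times over the members, and by more than 2 times for 8 of them. NPM1 has 45 named pseudogenes in GENCODE 29, so its level is uncertain.

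With EHMT2 siRNA, most of these genes had less RNA than with control siRNA, in both lines. The ratio, computed as log2 of (FPKM + 1), was below 0 for 29 of 40 members in resistant cells and for 29 of 40 in parental cells, with a median of -0.25 in the resistant and -0.40 in the parental line. Over all genes the medians were 0.06 in resistant and 0.09 in parental cells. The ratio was lower in both lines for 26 members, which is 65% of them, against 35.5% of all genes, and higher in both lines for 8 members, which is 20%, against 46.1% of all genes. For 20 members (50%) both EHMT2 siRNA libraries lay below the other 4, against 17.2% of all genes. For 4 members (RRP12, PES1, DDX18 and DDX56) both lay above the other 4, which is 10% against 25.4% of all genes. A ratio of at least 1.5-fold lower was found for 9 members in resistant cells, where 13.4% of all genes were that low, and for 7 in parental cells, where 12.8% were. RRP12 was the only member at least 1.5-fold higher, in both lines, while 16.2% of all genes in resistant and 20.2% in parental cells were that high. The members NHP2, NOP2, NOP56, FBL, NOB1 and WDR75 (6 of 40, or 15%) were at least 1.5-fold lower in both lines, against 8.44% of all genes, and RRP12 (1 of 40) was at least 1.5-fold higher in both, against 11.7%.

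**Figure D1:**
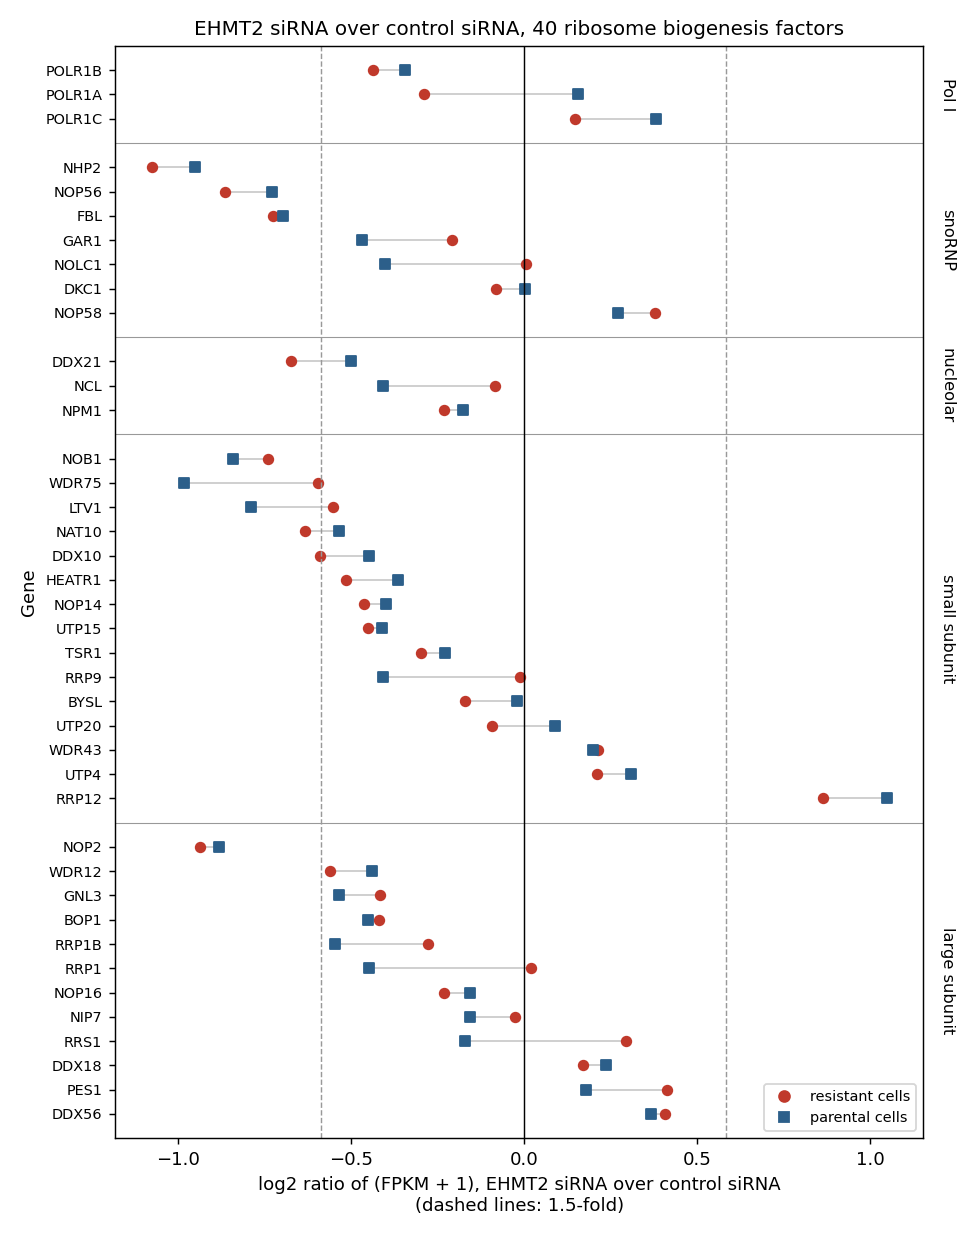
Log2 ratio of (FPKM + 1), EHMT2 siRNA over control siRNA, for each of the 40 genes, sorted within role groups; circles are resistant cells and squares parental cells, 1 library pair each, and dashed lines mark 1.5-fold. Most points lie left of 0 in both lines, and RRP12 lies alone at the right with 0.86 in resistant and 1.05 in parental cells.

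The test of these differences was limma on log2(FPKM + 1) with line and treatment as additive terms, fitted over the 11521 genes that reached an FPKM of 1 in 3 or more libraries. Over all 6 libraries, with 2 residual degrees of freedom, no member passed an adjusted p of 0.05 for EHMT2 siRNA in either direction, nor did any gene (0.0% of 11521 higher and 0.0% lower, limma with Benjamini-Hochberg adjustment). At an unadjusted p under 0.05, 11 of the 40 members were lower, against 11.1% of all genes, and 1 was higher, against 15.5%. Over the 4 siRNA libraries alone, with 1 residual degree of freedom, 18 of 40 members fell (45%, against 18.7% of all genes) and 2 rose (5%, against 23.8%). In this second fit the residual is how far the 2 lines differ in the effect of the siRNA, and limma moderates it with a prior estimated over all genes that carries more weight (5.72 prior degrees of freedom). In what follows, "fell" and "rose" refer to this fit of the 4 siRNA libraries, and each of these calls is lost when the untransfected libraries are added. Of 12 further settings, 2 leave out 1 untransfected library. The other untransfected library then has a treatment term of its own, so these 2 fits repeat that of the 4 siRNA libraries and add no support. In the remaining settings no member passed except NHP2, in 1. That setting asked for an FPKM of 5 or more and called 133 of 8280 genes lower.

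Among the 3 subunits of RNA polymerase I, POLR1B, the second-largest subunit, fell and the others did not pass the test. POLR1B had an FPKM of 8.69 with EHMT2 siRNA and 12.1 with control siRNA in resistant cells, and 10.4 with EHMT2 siRNA and 13.5 with control siRNA in parental cells. Its untransfected libraries had 12.5 in resistant and 10.5 in parental cells, so the parental knockdown lay level with the untransfected library. In log2 units it fell by 0.39 (SE 0.13, adjusted p = 0.0448 over the 4 siRNA libraries and 0.278 over all 6, limma with Benjamini-Hochberg adjustment). POLR1A, the largest subunit, had 4.94 with EHMT2 siRNA, 6.26 with control siRNA and 7.77 untransfected in resistant cells, against 8.50, 7.52 and 6.28 in parental cells in the same order. The lines thus went opposite ways, lower with EHMT2 siRNA in resistant and higher in parental cells. POLR1C, a subunit shared with RNA polymerase III, had 21.8 with EHMT2 siRNA and 19.6 with control siRNA in resistant cells, and 23.4 with EHMT2 siRNA and 17.7 with control siRNA in parental cells. Untransfected, POLR1C had 26.1 in resistant cells, above the knockdown there, and 19.0 in parental cells.

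The snoRNP proteins gave 3 that fell and 0 that rose of 7, against 18.7% and 23.8% of all genes. Partners of the same particle had different values. Box C/D snoRNPs methylate ribose in rRNA, with fibrillarin (FBL) as the enzyme and NOP56 and NOP58 as its paired core proteins. FBL had an FPKM of 99.8 with EHMT2 siRNA, 165.5 with control siRNA and 125.6 untransfected in resistant cells, and 95.2, 154.8 and 171.7 in parental cells in that order. NOP56 had 86.0, 157.4 and 168.1 in resistant cells, and 127.2, 211.3 and 172.1 in parental cells in that order. Both genes were lowest in the EHMT2 siRNA library of each line, at 60.3% of control siRNA for FBL and 54.7% for NOP56 in resistant cells, and at 61.5% for FBL and 60.2% for NOP56 in parental cells. FBL fell by 0.71 (SE 0.11, adjusted p = 0.00409) and NOP56 fell by 0.80 (SE 0.12, adjusted p = 0.00314; limma, Benjamini-Hochberg, 4 siRNA libraries). Over all 6 libraries the adjusted p was 0.133 for FBL and 0.108 for NOP56. NOP58, in contrast, had 76.0 with EHMT2 siRNA, 58.3 with control siRNA and 71.7 untransfected in resistant cells, and 93.9, 77.5 and 62.1 in parental cells in that order. Its estimate was 0.33 above control siRNA and missed the threshold (SE 0.11, Benjamini-Hochberg adjusted p = 0.0525, limma, 4 siRNA libraries).

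Box H/ACA snoRNPs turn uridine into pseudouridine, with DKC1 (dyskerin) as the enzyme and NHP2 and GAR1 among its core partners. NHP2 had an FPKM of 37.4 with EHMT2 siRNA, 80.0 with control siRNA and 71.8 untransfected in resistant cells, and 39.8, 77.8 and 67.9 in parental cells in that order. The EHMT2 siRNA libraries stood well below the other 4, at 46.8% of control siRNA in resistant and 51.1% in parental cells. NHP2 had the lowest mean ratio of the 40 members and fell by 1.01 in log2 units (SE 0.11, adjusted p = 0.00141 over the 4 siRNA libraries and 0.0559 over all 6, limma with Benjamini-Hochberg adjustment). DKC1 had 38.6 with EHMT2 siRNA and 40.9 with control siRNA in resistant cells, and 41.9 with EHMT2 siRNA and 41.7 with control siRNA in parental cells. Untransfected, DKC1 had 53.4 in resistant and 50.9 in parental cells, above each siRNA library. The enzyme of the particle thus had 94.5% of its control siRNA level in resistant and 100.3% in parental cells (adjusted p = 0.80, limma with Benjamini-Hochberg adjustment, 4 siRNA libraries), which does not show that it was unaffected. GAR1 had 25.6 with EHMT2 siRNA and 29.7 with control siRNA in resistant cells and 22.8 against 31.9 in parental cells. Untransfected, GAR1 had 38.2 in resistant and 33.6 in parental cells. Its estimate of -0.34 missed the threshold (adjusted p = 0.0634, limma with Benjamini-Hochberg adjustment). NOLC1, a chaperone of both kinds of snoRNP, had ratios of 0.01 in the resistant and -0.40 in the parental line and was not called. Of the exonic bases of NHP2, 27.4% are shared with RMND5B, which had an FPKM of 5.16 to 7.18 in the 6 libraries.

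**Figure D2:**
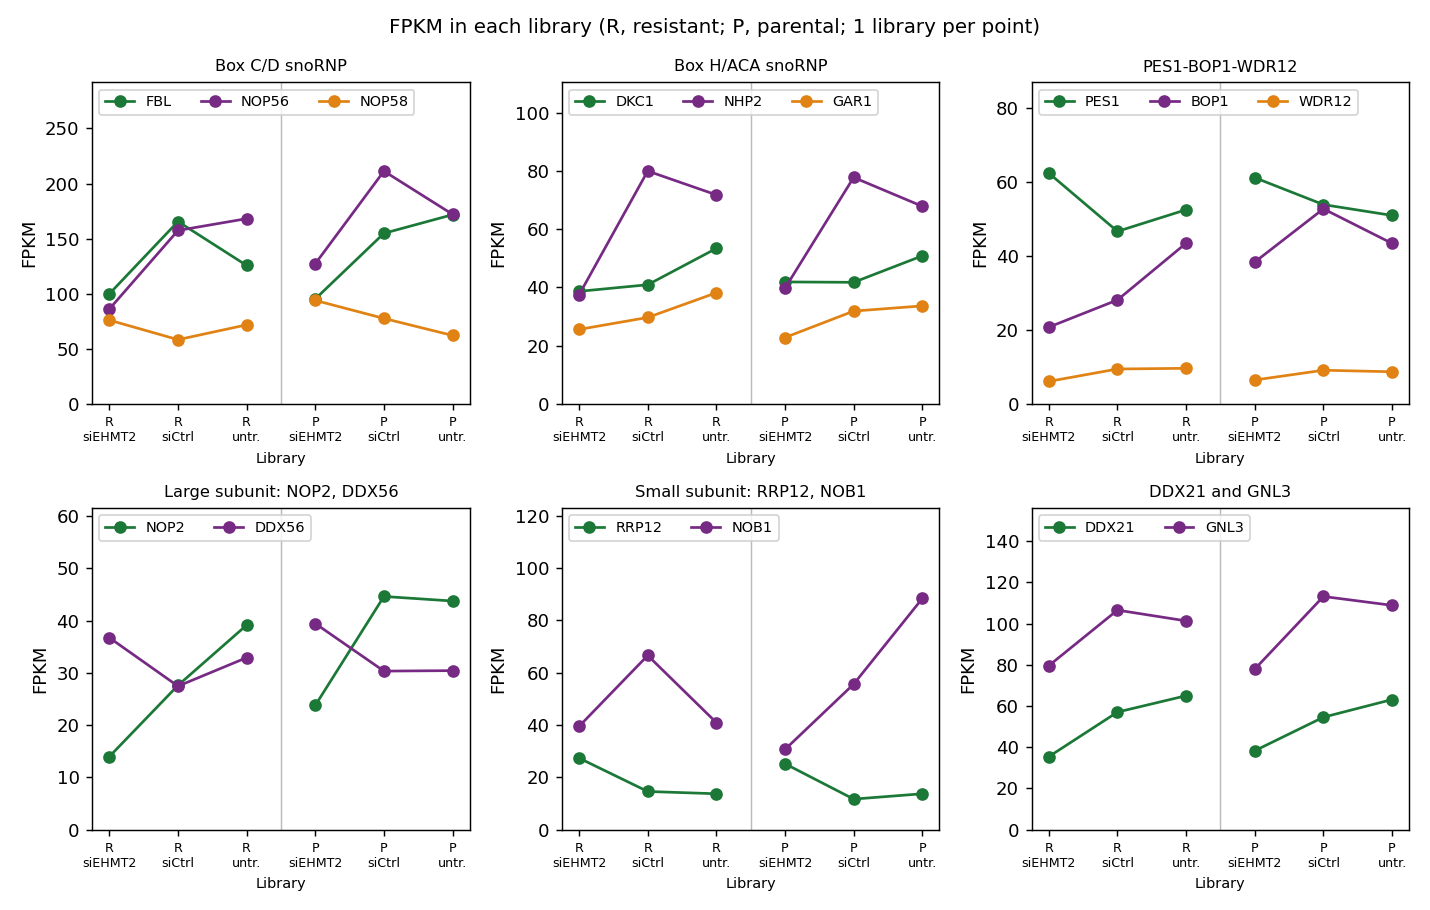
FPKM of members of 3 particles, and of pairs of members with other roles, in each of the 6 libraries, with resistant cells (R) left and parental cells (P) right in each panel; each point is 1 library and lines only join libraries of a line. FBL, NOP56, NHP2 and NOP2 are lowest with EHMT2 siRNA in each line, while NOP58, PES1, RRP12 and DDX56 are highest there.

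Of the 3 abundant nucleolar proteins, DDX21, a helicase that acts on rRNA transcription and processing, fell. It had an FPKM of 35.4 with EHMT2 siRNA, 57.0 with control siRNA and 65.0 untransfected in resistant cells, and 38.3, 54.5 and 63.1 in parental cells in that order. Both knockdown libraries lay below the other 4, and the estimate was -0.59 (SE 0.11, adjusted p = 0.00797 over the 4 siRNA libraries, 0.116 over all 6, limma with Benjamini-Hochberg adjustment). NCL had 275.3 with EHMT2 siRNA and 291.7 with control siRNA in resistant cells, and 310.4 against 412.2 in parental cells. Untransfected, NCL had 352.9 in resistant and 366.2 in parental cells. NPM1 had 976 with EHMT2 siRNA and 1146 with control siRNA in resistant cells, and 928 against 1047 in parental cells. Neither NCL nor NPM1 passed the test, and the untransfected libraries had less NPM1 than either siRNA library, at 761 in resistant and 858 in parental cells.

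Small-subunit factors made up 15 of the members, of which 8 fell and 1 rose, against 18.7% and 23.8% of all genes. NOB1, the nuclease that makes the last cut of small-subunit rRNA, had an FPKM of 39.5 with EHMT2 siRNA, 66.6 with control siRNA and 40.9 untransfected in resistant cells, and 30.6, 55.6 and 88.4 in parental cells in that order. Its estimate was -0.79 (SE 0.11, adjusted p = 0.00276 over the 4 siRNA libraries and 0.254 over all 6, limma with Benjamini-Hochberg adjustment). In resistant cells the untransfected library was about as low as the knockdown. RRP12, which in yeast is needed for export of both subunits, went the other way. It had 27.3 with EHMT2 siRNA, 14.6 with control siRNA and 13.7 untransfected in resistant cells, and 25.2, 11.7 and 13.7 in parental cells in that order. No value of the other 4 libraries came near either knockdown library, and RRP12 rose by 0.96 (SE 0.12, adjusted p = 0.00213 over the 4 siRNA libraries and 0.0625 over all 6, limma with Benjamini-Hochberg adjustment).

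The other small-subunit genes named here lie outside the rule for named genes, the choice being made with their values known. UTP4, UTP15, WDR43, WDR75 and HEATR1 belong to the group of proteins that bind the start of the rRNA precursor as it is made. WDR75, with an estimate of -0.79, HEATR1 with -0.44 and UTP15 with -0.43 fell (limma, 4 siRNA libraries). WDR75 had an FPKM of 23.4 with EHMT2 siRNA and 35.8 with control siRNA in resistant cells, and 18.0 against 36.5 in parental cells. In resistant cells the ratio was 0.21 for UTP4 and 0.21 for WDR43, and in parental cells 0.31 for UTP4 and 0.20 for WDR43; neither was called. LTV1, a late assembly factor, fell by 0.67 and NAT10, the acetyltransferase that modifies cytidine in small-subunit rRNA, by 0.58. The helicase DDX10 fell by 0.52 and NOP14 by 0.43, while UTP20, BYSL, TSR1 and RRP9, a protein of the U3 snoRNP, were not called. HEATR1 shares 23.2% of its exonic bases with 2 neighbours, among them LGALS8. LGALS8 had 15.4 with EHMT2 siRNA against 7.26 with control siRNA in resistant cells and 15.4 against 7.39 in parental cells. Without transfection LGALS8 had 12.9 in resistant and 15.4 in parental cells, so the control siRNA library was the lowest of each line. LTV1 shares 34.8% of its exonic bases with loci listed at or near 0.

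Large-subunit factors made up 12 members, of which 5 fell and 1 rose, against 18.7% and 23.8% of all genes. NOP2, a cytidine methyltransferase of large-subunit rRNA, had an FPKM of 14.0 with EHMT2 siRNA, 27.6 with control siRNA and 39.2 untransfected in resistant cells, and 23.8, 44.6 and 43.8 in parental cells in that order. The knockdown library stood at 50.6% of control siRNA in resistant and 53.3% in parental cells, and NOP2 fell by 0.91 (SE 0.11, adjusted p = 0.00201 over the 4 siRNA libraries and 0.0848 over all 6, limma with Benjamini-Hochberg adjustment). A locus annotated across NOP2, AC006064.6, shares 54.4% of the exonic bases of NOP2 and moved the other way. AC006064.6 had 9.52 with EHMT2 siRNA, 3.0 with control siRNA and 7.34 untransfected in resistant cells, and 13.6, 1.55 and 1.36 in parental cells in that order. Its part in the values of NOP2 was not tested.

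PES1, BOP1 and WDR12 form a complex needed to mature the large-subunit rRNA, and BOP1 and WDR12 fell while PES1 was not called. BOP1 had an FPKM of 20.7 with EHMT2 siRNA, 28.1 with control siRNA and 43.4 untransfected in resistant cells, and 38.3, 52.7 and 43.3 in parental cells in that order. WDR12 had 6.06 with EHMT2 siRNA and 9.41 with control siRNA in resistant cells, and 6.43 against 9.07 in parental cells. BOP1 fell by 0.43 (SE 0.11, adjusted p = 0.0199) and WDR12 by 0.50 (SE 0.13, adjusted p = 0.0247; limma, Benjamini-Hochberg, 4 siRNA libraries). PES1 had 62.3 with EHMT2 siRNA, 46.6 with control siRNA and 52.4 untransfected in resistant cells, and 61.1, 53.8 and 50.9 in parental cells in that order. PES1 was thus highest with EHMT2 siRNA in each line, but its estimate of 0.30 missed the threshold (adjusted p = 0.0815, limma with Benjamini-Hochberg adjustment). DDX56, a helicase of large-subunit assembly, had 36.7 with EHMT2 siRNA, 27.5 with control siRNA and 32.9 untransfected in resistant cells, and 39.5, 30.4 and 30.4 in parental cells in that order, and it rose by 0.39 (SE 0.11, Benjamini-Hochberg adjusted p = 0.0296, limma, 4 siRNA libraries). GNL3, RRP1B and WDR12 lie outside the rule for named genes and are named with their values known. GNL3, or nucleostemin, fell by 0.47 and RRP1B by 0.41. The ratios of RRP1, NOP16, NIP7, RRS1 and DDX18 lay between -0.45 and 0.30 in both lines, and these genes were not called.

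Of the members, 8 of 40 (20%) carry snoRNA genes within their own bounds, against 1.81% of the expressed genes with a GENCODE 29 entry. These are POLR1C, NOP56, NOP58, DKC1, NCL, WDR43, TSR1 and GNL3, with 26 snoRNA genes in all. Their median knockdown ratio was -0.08 in resistant and -0.11 in parental cells, while for the 32 members without a snoRNA gene it was -0.28 in resistant and -0.40 in parental cells. NOP56 and GNL3 are hosts that fell. The difference between hosts and the others was not tested.

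The promoters of members were searched for the E-box CACGTG, which reads the same on both strands, in 300 bases from 250 before to 50 after the RefSeq start (GRCh38.p14). A promoter was found for 33 of the 40 members. The E-box stood in 14 of these 33 (42.4%), in 12.7% of 9662 expressed genes and in 7.26% of 35116 promoters of the table. It stood in 32.1% of 81 further biogenesis genes and in 6.35% of 63 cytosolic ribosomal protein genes. The ETS motif CCGGAAG, on either strand, stood in 36.4% of the members and 22.8% of expressed genes, and AAGATGG, the core of the YY1 motif, on either strand, in 12.1% of the members and 9.67% of expressed genes. A match is a description of the letters and not of binding.

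Stretches around the E-box are given for 5 of the 14 members with the motif, and its position in the others was not read. The search reached only from 250 bases before to 50 after the start. The E-box is in capitals, and each stretch is written 5′ to 3′ on the strand of its gene. NOP2, FBL and DDX21 fell, while GAR1 and PES1 were not called. The E-box begins 31 bases before the start in DDX21. Counting the start as base 1, it begins at base 7 in FBL, 14 in PES1, 32 in GAR1 and 36 in NOP2. The stretches are chr12:6568242-6568268 (minus strand) for NOP2, chr19:39846350-39846449 (minus) for FBL, chr10:68956577-68956676 (plus) for DDX21, chr4:109815781-109815810 (plus) for GAR1 and chr22:30591881-30591980 (minus) for PES1.
NOP2: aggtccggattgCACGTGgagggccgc
FBL: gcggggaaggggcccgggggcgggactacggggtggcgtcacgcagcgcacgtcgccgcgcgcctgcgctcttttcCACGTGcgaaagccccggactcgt
DDX21: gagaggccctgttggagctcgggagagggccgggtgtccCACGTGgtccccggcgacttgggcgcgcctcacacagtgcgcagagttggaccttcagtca
GAR1: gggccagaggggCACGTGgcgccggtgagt
PES1: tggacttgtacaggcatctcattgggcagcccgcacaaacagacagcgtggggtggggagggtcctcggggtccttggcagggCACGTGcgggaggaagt

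Among the 33 members with a promoter, those with and without the motif had similar knockdown medians. With it, the median ratio was -0.31 in resistant and -0.44 in parental cells, and for the 19 members whose window lacked it the median was -0.30 in resistant and -0.36 in parental cells. The 7 members without a promoter could not be classed, and their medians were 0.17 in resistant and -0.17 in parental cells. RRP12, NOP58 and DDX18, all higher in both lines, are among them. Of the members at least 1.5-fold lower in both lines, NOP2 and FBL have an E-box in this window. NHP2, NOP56, NOB1 and WDR75 have none there. MYC had an FPKM of 28.7 with EHMT2 siRNA, 92.2 with control siRNA and 68.9 untransfected in resistant cells, and 25.1, 64.1 and 143 in parental cells in that order. MYC fell by 1.49 (SE 0.13, adjusted p = 0.00085 over the 4 siRNA libraries and 0.0989 over all 6, limma with Benjamini-Hochberg adjustment). Its part in the members' ratios was not tested.

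Other genes of the pathway were read from lists beyond the 40. In the fit of the 4 siRNA libraries 18.7% of all genes fell and 23.8% rose. Of 93 further biogenesis factors, 15 fell (16.1%) and 11 rose (11.8%). Their median ratios were 0.03 in resistant and -0.01 in parental cells, closer to those of all genes than the medians of the 40 members. The small-subunit factors TBL3 and SNU13 were the lowest of that list. TBL3 had an FPKM of 5.43 with EHMT2 siRNA and 9.43 with control siRNA in resistant cells, and 6.76 against 15.4 in parental cells. SNU13, which binds the box C/D snoRNA itself, had 41.8 with EHMT2 siRNA and 82.3 with control siRNA in resistant cells and 38.2 against 70.5 in parental cells. Of its particle partners, FBL and NOP56 were also lower in both lines and NOP58 was higher. NOP10, the remaining core protein of the box H/ACA particle, is outside the rule for named genes. It had 107.8 with EHMT2 siRNA and 73.6 with control siRNA in resistant cells and 87.5 against 60.4 in parental cells, and it rose by 0.54 while NHP2 fell. DDX47 was the highest of the list, at 47.7 with EHMT2 siRNA and 27.2 with control siRNA in resistant cells and 52.6 against 26.1 in parental cells. NMD3, the export adaptor of the large subunit, rose by 0.74 (SE 0.13, Benjamini-Hochberg adjusted p = 0.00571, limma, 4 siRNA libraries).

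Of 12 further genes of RNA polymerase I transcription, 1 fell and 3 rose. TCOF1 (treacle) had an FPKM of 12.2 with EHMT2 siRNA and 21.0 with control siRNA in resistant cells, and 15.0 against 29.4 in parental cells, and it fell by 0.83. RRN3, the factor that brings the polymerase to the promoter, rose by 0.55 and TAF1C had ratios of 0.93 in the resistant and 0.78 in the parental line. Of 14 genes of the RNA exosome and its cofactors, 3 fell and 3 rose, which is 21.4% each, against 18.7% and 23.8% of all genes. EXOSC9, a subunit of the exosome ring, had 12.8 with EHMT2 siRNA and 29.2 with control siRNA in resistant cells, and 15.3 against 30.2 in parental cells, and it fell by 1.03. Of 12 stand-alone pseudouridine synthases, 2 fell and 0 rose, RPUSD1 having the lowest mean ratio.

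Cytosolic ribosomal proteins are the cargo of this pathway. Of 78 such genes 56 fell and 0 rose, with a median ratio of -0.67 in the resistant and -0.53 in the parental line. RPS3 had an FPKM of 371 with EHMT2 siRNA and 1278 with control siRNA in resistant cells, and 308 against 849 in parental cells. Both EHMT2 siRNA libraries lay below the other 4 for 17 of the 78 genes (21.8%), against the 17.2% of all genes given above. Their summed FPKM was 43481 with EHMT2 siRNA, 72051 with control siRNA and 36164 untransfected in resistant cells, so the knockdown lay above the untransfected library there. In parental cells it was 32910 with EHMT2 siRNA, 47628 with control siRNA and 70817 untransfected. All 14 proliferation markers also fell, with a median of -1.14 in the resistant and -0.88 in the parental line. MCM5, a subunit of the replicative helicase, had 4.31 with EHMT2 siRNA and 19.9 with control siRNA in resistant cells, and 7.54 against 37.4 in parental cells. The part of proliferation in the members' ratios was not tested, and in bulk RNA fewer cells of a kind and less RNA per cell cannot be told apart.

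**Figure D3:**
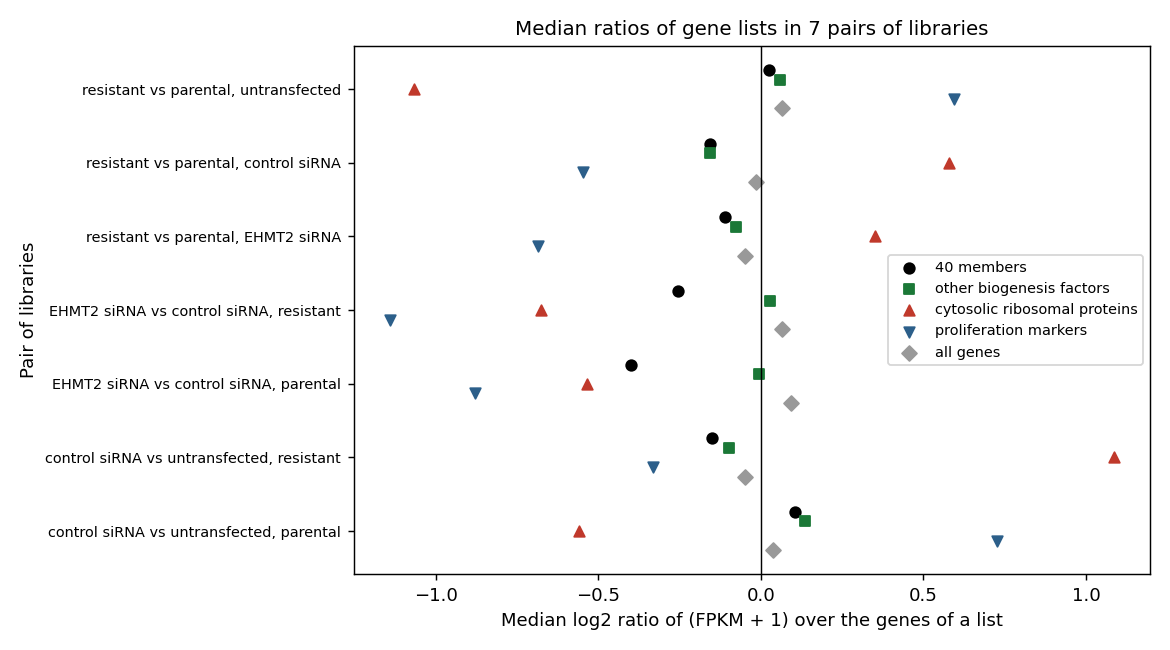
Median log2 ratio of (FPKM + 1) for the 40 members, 93 other biogenesis factors, 78 cytosolic ribosomal proteins, 14 proliferation markers and all genes, in each of 7 pairs of libraries. With EHMT2 siRNA the members lie left of all genes in both lines, while in the line pairs and the control siRNA pairs they stay within 0.16 of 0.

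Between resistant and parental cells the members differed less, and the direction depended on the treatment. Without transfection the ratio of resistant over parental was above 0 for 23 members and below 0 for 17, with a median of 0.03 against 0.07 over all genes. With control siRNA it was above 0 for 9 and below 0 for 31 (median -0.16, all genes -0.02), and with EHMT2 siRNA above 0 for 14 and below 0 for 26 (median -0.11, all genes -0.05). The 3 pairs use different libraries of each line. The small median of the untransfected pair turns to -0.04 when ratios are centred on all genes.

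Few members were 1.5-fold apart between the lines. In untransfected cells 1 was at least 1.5-fold higher in resistant cells, UTP20, against 11.8% of all genes, and 1 was at least 1.5-fold lower, NOB1, against 10.0%. With control siRNA 0 were that much higher, against 6.49%, and 3 that much lower, BOP1, NOP2 and RRS1, against 5.52% (7.5% of the members). With EHMT2 siRNA 0 were that much higher, against 5.99%, and 3 that much lower, BOP1, NOP2 and POLR1A, against 9.5%. The shares lie near or under those of all genes.

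**Figure D4:**
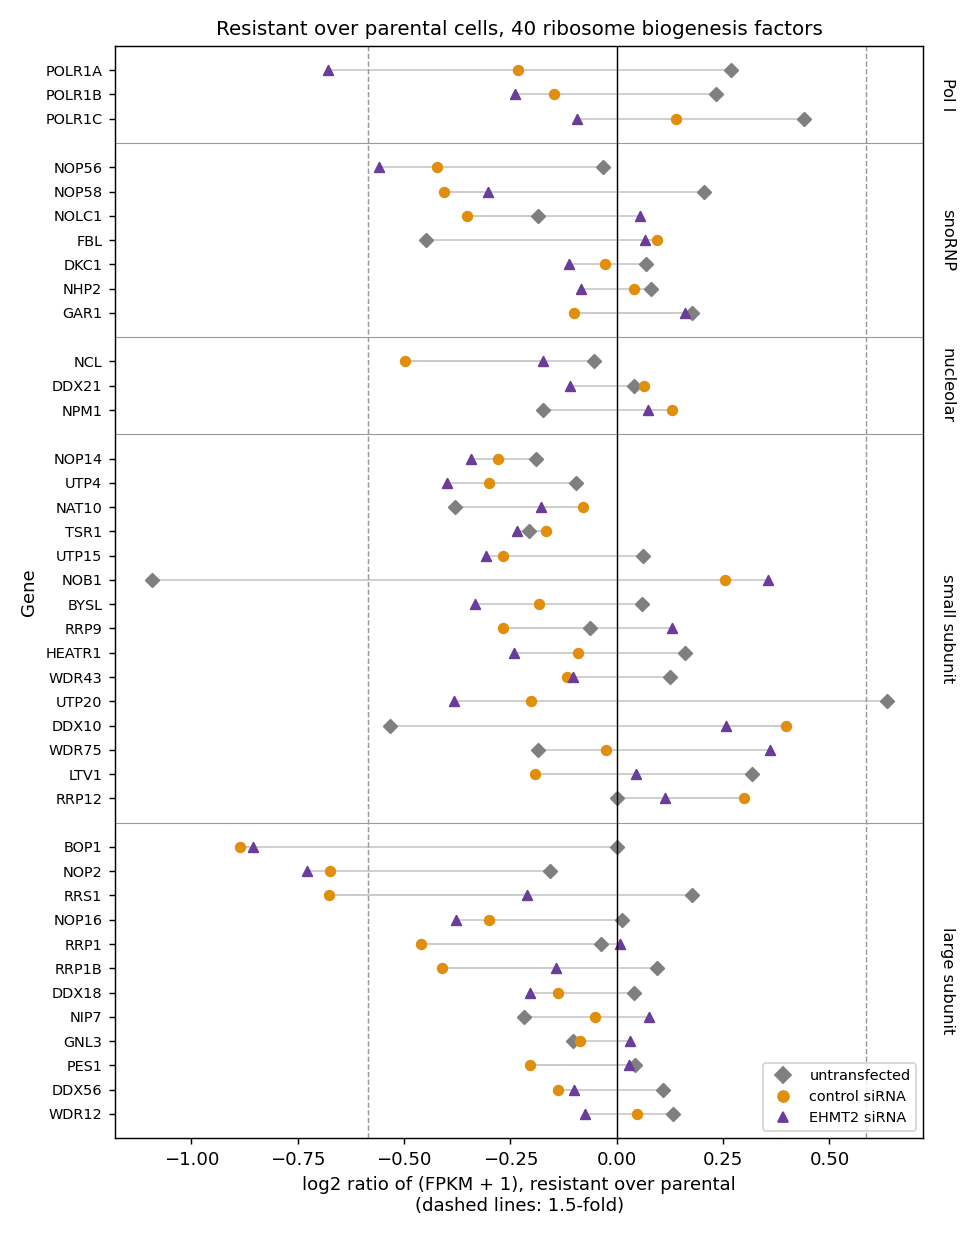
Log2 ratio of (FPKM + 1), resistant over parental, for each of the 40 genes, with untransfected cells as diamonds, control siRNA as circles and EHMT2 siRNA as triangles; each point is 1 library pair. In both siRNA pairs BOP1 and NOP2 lie left of the 1.5-fold line, but in untransfected cells BOP1 lies at 0.00 and NOP2 at -0.16, and NOB1 lies at -1.09 in untransfected cells only.

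In the fit over all 6 libraries no member passed an adjusted p of 0.05 for line, nor did any gene (0.0% higher and 0.0% lower, limma with Benjamini-Hochberg adjustment), and at an unadjusted p under 0.05, 2 of 40 members were lower, against 2.15% of all genes, and 0 higher, against 3.08%. Over the 4 siRNA libraries 3 of 40 members were lower in resistant cells, against 4.47% of all genes, and 0 were higher, against 4.49%. BOP1 was lower by an estimate of -0.87 (SE 0.11, adjusted p = 0.0131), NOP2 by -0.70 (SE 0.11, adjusted p = 0.0212) and NOP56 by -0.49 (SE 0.12, adjusted p = 0.0488; limma, Benjamini-Hochberg, 4 siRNA libraries). BOP1 had 20.7 in the resistant and 38.3 in the parental line with EHMT2 siRNA, and 28.1 in the resistant and 52.7 in the parental line with control siRNA. Untransfected, it had 43.4 in the resistant and 43.3 in the parental line. EHMT2 siRNA and its control thus show a line difference of BOP1 that the untransfected cells do not show, and the difference between these pairs was not tested.

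With control siRNA over no transfection, the median of the members was below 0 in resistant and above 0 in parental cells, as were the medians of all genes and of the proliferation markers. In resistant cells 12 members were higher and 28 lower, with a median of -0.15 against -0.05 over all genes and -0.33 over proliferation markers. In parental cells 26 were higher and 14 lower, with a median of 0.10 against 0.04 over all genes and 0.73 over proliferation markers. In resistant cells 2 were at least 1.5-fold higher, NPM1 and NOB1, against 11.1% of all genes, and 2 at least 1.5-fold lower, BOP1 and RRS1, against 13.2%. In parental cells 1 was at least 1.5-fold higher, UTP20, against 6.95% of all genes, and 2 at least 1.5-fold lower, DDX10 and NOB1, against 8.21%. NOB1 was thus 0.69 higher in resistant and 0.66 lower in parental cells with control siRNA. In the fit of all 6 libraries 0 members were called for control siRNA, against 0.0347% of all genes higher and 0.00868% lower (limma with Benjamini-Hochberg adjustment); at an unadjusted p under 0.05 the members were also 0 in each direction, against 3.27% of all genes higher and 3.78% lower. These control siRNA libraries are those that the knockdowns are set against, so the pairs share libraries. Over the ribosomal protein genes the median for control siRNA over no transfection was 1.09 in the resistant and -0.56 in the parental line. Between the untransfected libraries the median of these genes was -1.07 for resistant over parental cells.

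Members that lie close on a chromosome were also read. NIP7 lies 106866 bases from UTP4 and 398756 from NOB1 on chromosome 16, and their knockdown ratios differed, with UTP4 higher in both lines, NIP7 near 0 in resistant cells and NOB1 at -0.74 in resistant and -0.84 in parental cells. RRP1 and RRP1B lie 93434 bases apart on chromosome 21, with RRP1 at 0.02 in resistant and -0.45 in parental cells and RRP1B at -0.28 in resistant and -0.55 in parental cells. NOP58 lies 571116 bases from WDR12 on chromosome 2. The knockdown ratios of NOP58 were 0.38 in resistant and 0.27 in parental cells, and those of WDR12 -0.56 and -0.44. RRP9 lies 739215 bases from GNL3 on chromosome 3. RRP9 was at -0.01 in resistant and -0.41 in parental cells, and GNL3 at -0.42 and -0.53. Of the 40 genes, 8 are on chromosome 2, and the share of all genes there was not counted.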

How the data were processed

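Per the labels' protocols, total RNA was prepared with TruSeq kit v2. The submitters' processing notes name StringTie 2.1.1, HISAT2 2.2.1, cutadapt 4.9 and FastQC 0.12.1, with build GRCh38. Annotation, strand setting and depth were not given there. The authors deposited FPKM, 1 table of 19957 genes per library. Where a symbol had several entries, that with the highest mean FPKM was kept.

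The members and gene lists were chosen with earlier results of these data known. For each of 7 library pairs, log2 ratios were computed with a pseudocount of 1, which understates the change of low genes. These have no p-value, since each group holds 1 library. limma 3.58.1 (R 4.3.3) was fitted with a mean-variance trend and Benjamini-Hochberg adjustment over 11521 genes. p-values measure the spread between these libraries only. Calls come from either all 6 libraries or the 4 siRNA libraries. Coordinates and shared exonic bases are from GENCODE 29. Promoters are from RefSeq.

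Genes were named by rule: POLR1A, FBL, NOP56, DKC1, NCL, NPM1, PES1, BOP1, NOB1, EHMT2, the highest and lowest members by mean ratio (3 each, and 1 each per role), and, in part, the 2 highest and lowest of other lists. For genes of the other lists most untransfected values are left out. Alternatives were other pseudocounts, filters, scalings, fits, a 2-fold size and each library left out.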

Additional observations from a re-analysis of the deposited data

Results flagged for a closer look

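Effects of opposite sign in the resistant and the parental line, or in different treatments, were noted for members whose ratios both exceeded the median residual spread of 0.14. With 1 library per group none of these differences was tested. How many of all genes meet the same rule was not counted, so the number of members that do has nothing to be set against. For EHMT2 siRNA over control siRNA, POLR1A differed by -0.45 between the lines (-0.29 in resistant, 0.16 in parental cells) and RRS1 by 0.47 (0.30 in resistant, -0.17 in parental cells).

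The ratio of resistant over parental cells had opposite signs with control siRNA and without transfection for 8 members. The difference, control siRNA minus untransfected, was 1.35 for NOB1, 0.93 for DDX10, -0.38 for POLR1B, -0.50 for POLR1A, -0.51 for LTV1, -0.61 for NOP58, -0.84 for UTP20 and -0.85 for RRS1. NOB1 and DDX10 were higher in resistant cells with control siRNA and lower without transfection, and the other 6 the reverse. These 8 genes include 4 small-subunit factors, a role that 15 of the 40 members have.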

How the results depend on the processing

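The medians of the members kept their direction in each pair except resistant over parental, untransfected. There it was 0.03, and turned to -0.040 with ratios centred on all genes and -0.034 with quantile normalisation, and was 0.27 with libraries rescaled to 1 sum. That rescaling moved the median of all genes in this pair by 0.24. It moved the median of the members to -0.28 for EHMT2 siRNA in parental cells (all genes by 0.12) and to 0.29 for control siRNA over untransfected in parental cells (all genes by 0.18). For EHMT2 siRNA 0 members were called lower over all 6 libraries, 18 over the 4 siRNA libraries and 1 (NHP2) with an FPKM minimum of 5. That minimum left 39 members to test, and 133 of 8280 genes were called lower with it. Called higher were 0 over all 6 and 2 over the 4. For line, 0 were called lower over all 6 libraries and 3 over the 4. Leaving out 1 untransfected library repeats the fit of the 4 siRNA libraries, as the other has a term of its own. It is thus no further check of these calls. When any siRNA library was left out, none of these calls held. For control siRNA 0 members were called in each direction over all 6 libraries. Without the untransfected parental library, that treatment is left with 1 library, so calls of that fit are not read here. The median effect then moved from -0.003 to -0.12 over the members and from -0.0005 to -0.05 over all genes. At a 2-fold size with EHMT2 siRNA, NHP2 alone remained lower in resistant cells, where 475 of 11750 genes were that low. RRP12 alone remained higher in parental cells, where 894 of 11948 genes were that high. Centring raised the members 1.5-fold lower in parental cells with EHMT2 siRNA to 11, and how many of all genes were that low after centring was not counted. No paired analysis was possible because each group holds only replicate number 1, so that a block on the number adds no term; line, which joins the siRNA libraries of the same cells, is a term of each fit. Depth is unknown, so counting error at low genes such as UTP20 cannot be given.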
